A study of Homo sapiens with 6 samples.

Results

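Oxidative phosphorylation is the process by which the inner mitochondrial membrane turns the oxidation of NADH and succinate into ATP. Complexes I, II, III and IV pass electrons to oxygen. Complexes I, III and IV pump protons out of the matrix on the way, and complex V, the ATP synthase, lets them return and makes ATP. Most subunits are encoded in the nucleus and the rest by the mitochondrial genome, so every complex except complex II is built from the transcripts of both genomes. Breast carcinoma lines such as MDA-MB-231 are known for rapid glycolysis and keep a working respiratory chain beside it.

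The genes described here were the nuclear-encoded subunits of these complexes. They were taken by name, as the rows of the deposited count table whose symbol was that of an NDUF, SDH, UQCR, CYC1, COX or ATP5 subunit, which gave 76 of 60591 rows. This group of genes was chosen with earlier results of these data known. Complex I had 37 of them, complex II 4, complex III 9, complex IV 11 and complex V 15. NDUFA4 carries the name of a complex I subunit but was placed in complex IV, to which it is now assigned. All 76 passed the filter on low counts that left 20676 genes for testing.

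The cells were MDA-MB-231, a human breast carcinoma line, and every library came from the same bone-homing variant of it. The cells were held static or exposed to flowing medium at 1 mL/min (low flow) or 15 mL/min (high flow), to model the mechanical environment of a bone metastasis. Each condition had 2 polyA RNA libraries, and the sources used here do not state the time under flow. Nothing in the labels says that the replicates were separate cultures, so the p-values below measure the spread between these libraries, which may be technical. By the file headers, the static and low flow libraries were in lane 2 and the high flow libraries in lane 1. The high flow headers are also written in another form. They do not say whether the lanes belonged to the same sequencing run or whether the alignments were made alike. Flow rate cannot be told apart from lane, or from any such difference, in any comparison with high flow. Total counts were 17822642 and 23544307 in the static libraries, 45174328 and 47067620 at low flow and 43965176 and 53279537 at high flow, and no subunit gene had fewer than 343 counts in a library. The labels also call the cells endothelial. All 8 carcinoma line markers (VIM, CD44, EGFR, KRT8, KRT18, KRT19, EPCAM and AXL) were detected, with a summed level of 5947 to 7611 CPM (counts scaled to the size of the library). VIM alone reached 5028 CPM, so a large part of this sum is 1 gene, and the sum does not by itself settle the cell type. The 3 leukocyte markers summed to 258 to 339 CPM, with CD68 alone at up to 338.6 CPM. The 6 osteoblast and stroma markers summed to 4.56 to 7.58 CPM. The 8 endothelial markers summed to 63.6 to 94.5 CPM, and CDH5, CLDN5 and VWF were at or near 0. PECAM1, TEK, TIE1 and ESAM passed the count filter, with TIE1 the highest at up to 44.2 CPM. Of these 4, 1 was called higher at each flow rate (25%, against 3.25% of all genes tested at low flow and 7.49% at high flow).

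Of the 76 subunit genes, 7 were lower and 1 was higher under low flow than in static culture at an adjusted p under 0.05 (edgeR's quasi-likelihood test, Benjamini-Hochberg adjustment over all genes tested). UQCRB, SDHB, UQCR10, NDUFS5, NDUFS6, ATP5MC2 and NDUFA12 fell, and SDHC rose. The share of lower calls was 9.21%, against 3.49% of all genes tested and 5.79% of the 8902 genes at or above the level of the least abundant subunit gene. The share of higher calls was 1.32%, against 3.25% and 4.99%. The median log2 fold change of the 76 genes was -0.11, against 0.007 for all genes tested, and 55 of the 76 lay below 0 (72.4%, against 49% of all genes tested). In 31 genes both low flow libraries were below both static libraries (26.3% of all genes tested and 30.7% at that level did this), and in 6 genes both were above them (27.1% and 29.7%). Fewer cells with a given transcript and less transcript per cell cannot be told apart in such bulk libraries.

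High flow gave 7 lower calls and no higher call against static culture. UQCRB, NDUFA12, NDUFA5, SDHB, NDUFS5, UQCR10 and COX7B fell, which is 9.21% of the subunit genes, against 6.43% of all genes tested and 8.71% of those at or above the lowest subunit gene's level. For higher calls the background was 7.49% of all genes tested and 11.2% at that level. The only gene higher at an unadjusted p under 0.05 was SDHC, and DESeq2 also called 0 higher. The median log2 fold change was -0.09, against 0.002 for all genes tested, and 56 of the 76 genes lay below 0 (73.7%, against 49.7%). In 30 genes the high flow libraries were both below both static libraries (29.4% of all genes tested and 33.2% at that level), and in 4 they were both above them (29.9% and 32.5%). The low flow and high flow comparisons share the static libraries, so 5 genes that were lower in both (UQCRB, SDHB, UQCR10, NDUFS5 and NDUFA12) were not counted as independent results.

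**Figure D1:**
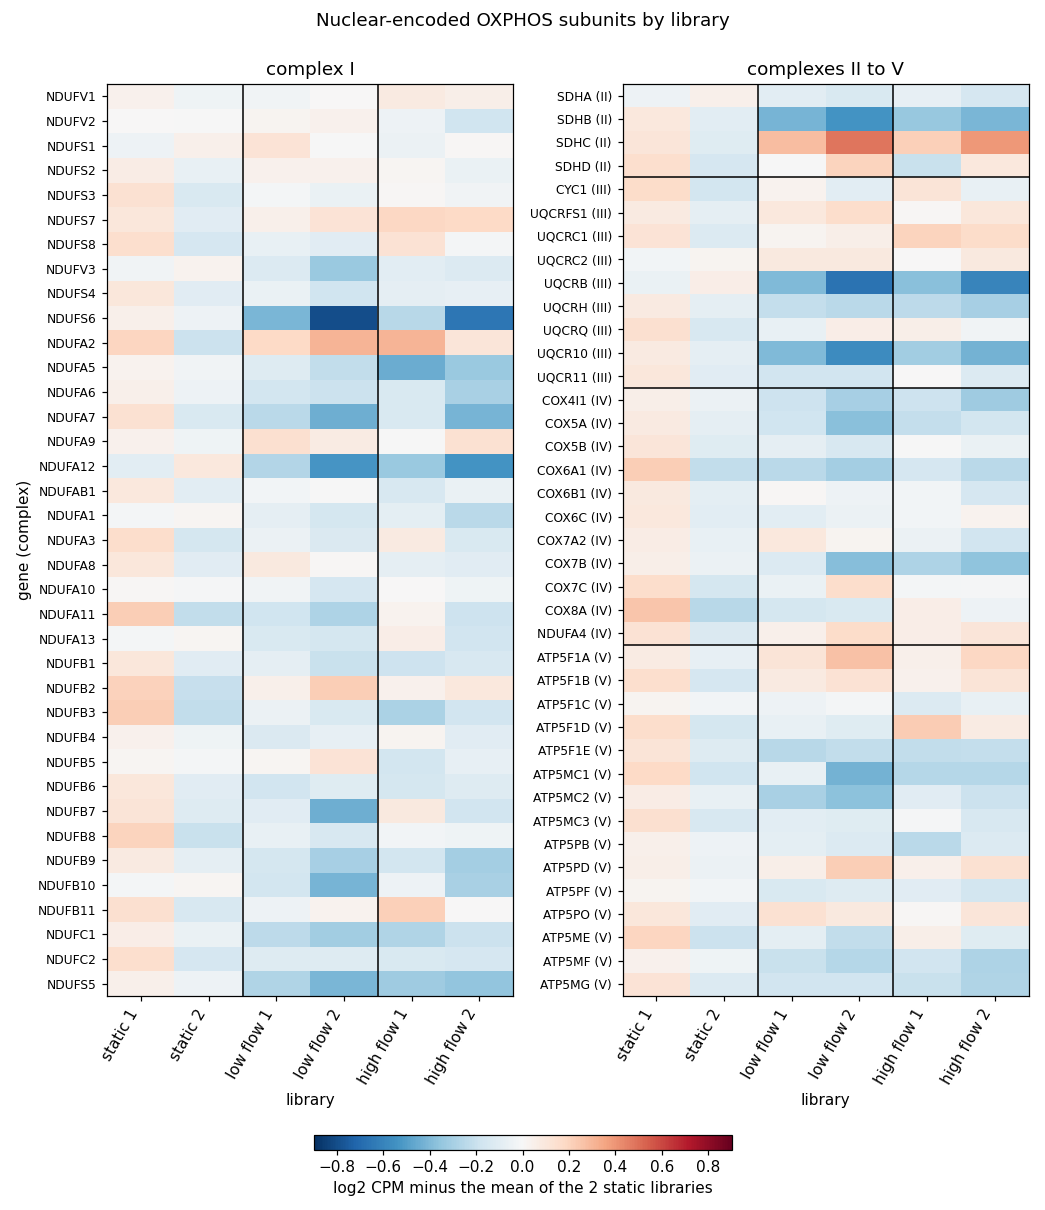
Colour gives log2 CPM of each of the 76 subunit genes (rows, grouped by complex) in each of the 6 libraries (columns), minus the mean of the 2 static libraries of that gene. Most squares under flow are pale blue, NDUFS6, SDHB, UQCRB and UQCR10 are the darkest blue rows and SDHC is the reddest, and static library 1 is redder than static library 2 in most rows.

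These counts rested on single libraries, and the low flow and high flow medians rested on static library 1. Its median deviation from the mean of the 6 libraries over the 76 genes was 0.15 on the log2 scale, against -0.06 to -0.02 in the 5 other libraries. Without static library 1 the median log2 fold change was 0.007 at low flow and 0.005 at high flow. It was -0.19 and -0.17 without static library 2. The low flow comparison called UQCRB alone without static library 1, SDHB alone without static library 2, and 14 subunit genes without low flow library 1. It called none without low flow library 2. It called NDUFS6, SDHB and UQCRB when either high flow library was left out of the shared fit. The high flow comparison called NDUFA12 and UQCRB without static library 1, none without static library 2 or without either high flow library, and 9 without either low flow library. Under the 7 alternatives that kept all libraries of the groups compared, SDHB and UQCRB passed at both flow rates and NDUFS6 at low flow each time. NDUFA12 and NDUFS5 lost the low flow call when only the low flow and static libraries were fitted and with a replicate block (the replicate number as a term of the fit). Both lost the high flow call with that block plus offsets for transcript length and GC content, where NDUFA12 also lost its low flow call. The low flow call of UQCR10 was lost when only the low flow and static libraries were fitted. NDUFA5 and COX7B lost the high flow call with length and GC offsets with or without the block, and COX7B also with no filter.

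No subunit gene passed the test between high flow and low flow. The test called 0 of 76 genes in either direction, against 0.242% of all genes tested higher and 0.0919% lower (0.371% and 0.124% at the level of the subunit genes), and DESeq2 also called 0. In 14 subunit genes both high flow libraries were above both low flow libraries (21.2% of all genes tested and 24.9% at that level), and in 11 both were below them (21.5% and 23%). NDUFA5 was the single gene with an unadjusted p under 0.05. The log2 fold changes ranged from -0.22 (NDUFA5) to 0.24 (ATP5F1D), with a median of 0.002 and standard errors of 0.09 to 0.15. A p that misses the threshold does not show that the groups were alike.

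Summed over all 76 genes, the level was 5762 ± 475 CPM in static culture, 5393 ± 66.2 CPM at low flow and 5403 ± 109.6 CPM at high flow (SD, n = 2 each). The static SD was larger than the difference between static culture and either flow rate. With 2 libraries against 2, an exact permutation test of such a sum cannot give a p below 0.333.

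**Figure D2:**
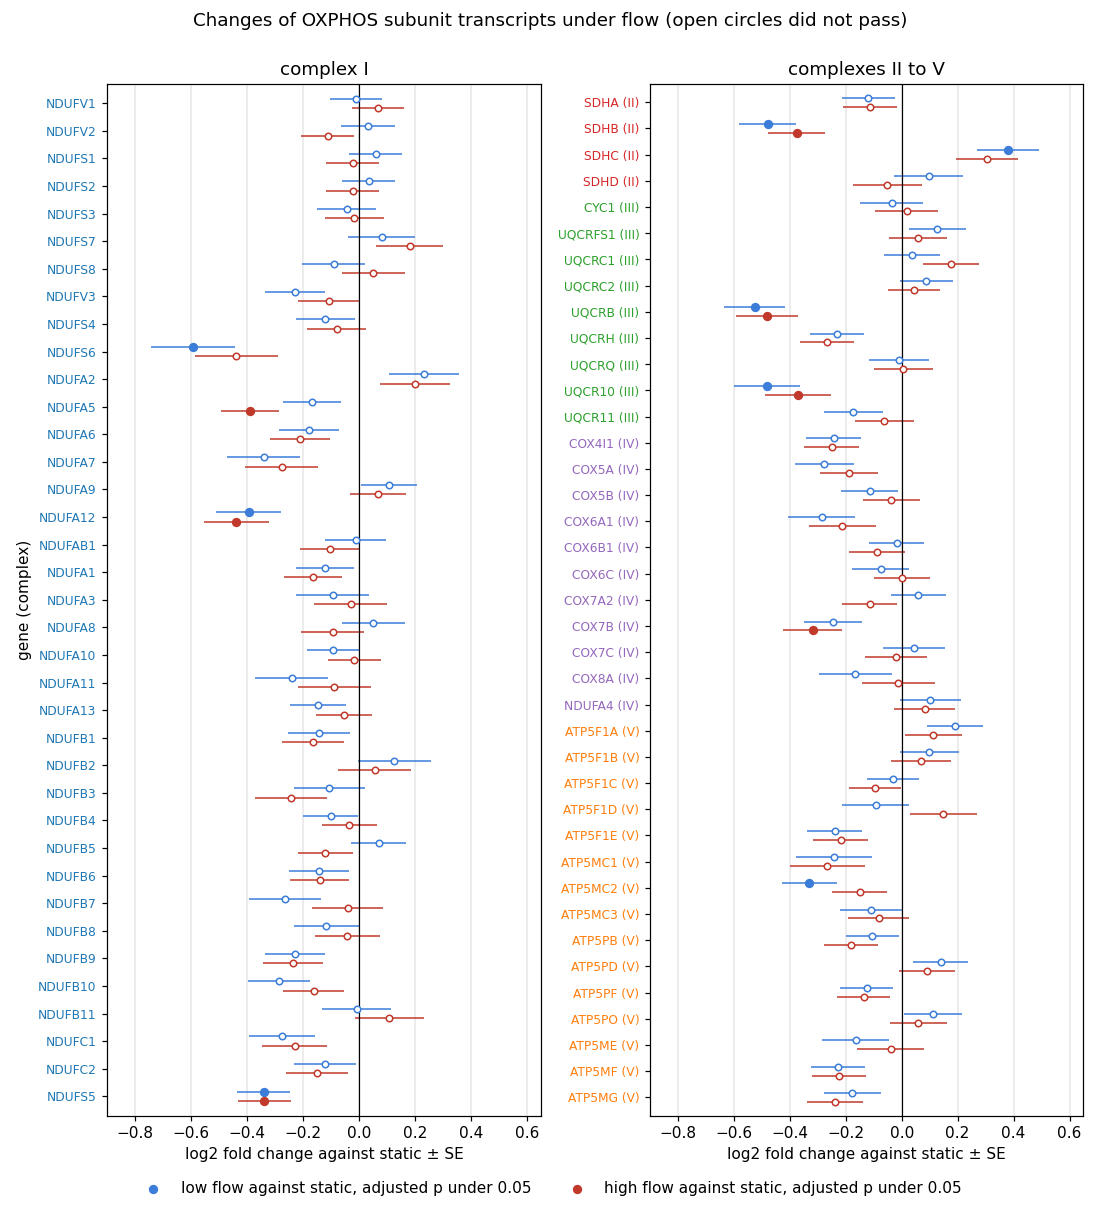
Points are log2 fold changes of each subunit gene against static culture at low flow (blue) and high flow (red), bars are standard errors, and filled points passed an adjusted p of 0.05. The filled points lie left of 0 except SDHC at low flow, and the core subunits at the top of the complex I panel run from -0.11 to 0.18.

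Complex I takes electrons from NADH. Its peripheral arm in the matrix holds the flavin and the iron-sulfur clusters, and its membrane arm pumps protons. The 7 nuclear-encoded core subunits, which carry out electron transfer, gave no call in any comparison, and 0 had an unadjusted p under 0.05. Their log2 fold changes at low flow ran from -0.09 (NDUFS8) to 0.08 (NDUFS7), with a median of 0.03. NDUFV1, which binds NADH and the flavin, had 97.6 and 92.6 CPM in static culture, 93.2 and 95.5 CPM at low flow and 101 and 98.5 CPM at high flow. NDUFS1, the largest core subunit and a carrier of iron-sulfur clusters, had 147 and 157 CPM in static culture, 165 and 151 CPM at low flow and 146 and 153 CPM at high flow. The low flow and static libraries overlapped in both genes. At high flow the core log2 fold changes ran from -0.11 (NDUFV2) to 0.18 (NDUFS7), with a median of -0.02. Both high flow libraries were above both static libraries in NDUFV1 and NDUFS7 and below them in NDUFV2. Over all genes tested, 29.9% were above and 29.4% below in this way.

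The calls of complex I lay among its accessory subunits, which surround the core and are needed for assembly and stability. Complex I had 8.11% lower calls at each flow rate, so 0 calls among 7 core subunits does not set the core apart. Of the 9 accessory subunits of the matrix arm, 2 fell at low flow and 2 at high flow (22.2% each), with medians of -0.18 and -0.21. Over all genes tested 3.49% were lower at low flow and 6.43% at high flow. A share of 9 genes is too coarse to be read as a trait of this class. NDUFS6 (chr5:1801400-1816605 in GRCh38, plus strand), a zinc-binding subunit, had 80.7 and 75.9 CPM in static culture, 58.8 and 45.0 CPM at low flow and 65.8 and 49.8 CPM at high flow. All 4 flow libraries were below both static libraries, and replicate 2 was the lowest at each flow rate. Its log2 fold change was -0.59 ± 0.15 (SE, adjusted p = 0.0403) at low flow and -0.44 ± 0.15 at high flow, where it did not pass (adjusted p = 0.0759). In 5 of 7 alternatives it did pass at high flow. These were no filter, DESeq2, a fit of only the high flow and static libraries, and the replicate block with or without length and GC offsets.

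NDUFA12 (chr12:94897055-95003770, minus strand), which sits on the matrix arm in the place that its paralogue NDUFAF2 holds during assembly, had 51.8 and 59.2 CPM in static culture, 46.1 and 38.3 CPM at low flow and 43.9 and 38.1 CPM at high flow. Its flow libraries were all below both static libraries, while the 2 flow rates overlapped, and the log2 fold change was -0.39 ± 0.12 at low flow (adjusted p = 0.0487) and -0.44 ± 0.12 at high flow (adjusted p = 0.0191). NDUFA5 (chr7:123536997-123558255, minus strand), an accessory subunit of the matrix arm, had 40.5 and 38.8 CPM in static culture, 36.6 and 34.0 CPM at low flow and 29.1 and 31.4 CPM at high flow. Its 3 groups did not overlap and were in the order of the flow rate. It passed at high flow only (log2 fold change -0.39 ± 0.10, adjusted p = 0.0198), with -0.17 ± 0.10 at low flow (adjusted p = 0.353) and -0.22 ± 0.10 for high flow against low flow (adjusted p = 0.497). NDUFA2, a thioredoxin-fold subunit of the same arm, had the highest log2 fold change of complex I, 0.23 ± 0.12 at low flow, and did not pass (adjusted p = 0.271).

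Of the 20 accessory subunits of the membrane arm, 17 lay below 0 at low flow and 18 at high flow, with medians of -0.12 and -0.11. Only NDUFS5 passed (5% of them, against 3.49% of all genes tested lower at low flow and 6.43% at high flow). NDUFS5 (chr1:39026318-39034636, plus strand), a subunit on the intermembrane-space side, had 127 and 119.6 CPM in static culture, 102 and 92.7 CPM at low flow and 98.8 and 96.4 CPM at high flow. All 4 flow libraries were below both static libraries by more than the spread within any group. The log2 fold change was -0.34 ± 0.10 at both flow rates, with adjusted p = 0.0400 at low flow and 0.0258 at high flow. NDUFAB1, the mitochondrial acyl carrier protein, which is present in both arms, had log2 fold changes of -0.01 at low flow and -0.10 at high flow and did not pass.

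Complex II, succinate dehydrogenase, is also a tricarboxylic acid (TCA) cycle enzyme and has no mitochondrially encoded subunit. SDHA holds the flavin, SDHB holds the iron-sulfur clusters, and SDHC and SDHD anchor both in the membrane. The 2 called genes moved in opposite directions. SDHB (chr1:17018722-17054170, minus strand) had 74.2 and 65.2 CPM in static culture, 52.1 and 47.8 CPM at low flow and 55.0 and 52.4 CPM at high flow. SDHC (chr1:161314257-161375340, plus strand) had 54.7 and 46.9 CPM in static culture, 61.3 and 70.7 CPM at low flow and 58.8 and 66.4 CPM at high flow. All 4 flow libraries were below both static libraries for SDHB and above both for SDHC.

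SDHB fell by 0.48 on the log2 scale at low flow (SE 0.10, adjusted p = 0.0116) and by 0.38 at high flow (SE 0.10, adjusted p = 0.0208). SDHC rose at low flow (log2 fold change 0.38 ± 0.11, adjusted p = 0.0464) and had 0.30 ± 0.11 at high flow, which did not pass (adjusted p = 0.0751). At high flow SDHC passed in 2 of 7 alternatives, with no filter and when only the high flow and static libraries were fitted. The call of SDHC at low flow held in 3 of 7 alternatives. It was lost when transcript length and GC content entered the fit with or without the replicate block, with that block alone and when only the low flow and static libraries were fitted. It was also lost without any single library other than low flow library 1. SDHA had 71.1 and 75.5 CPM in static culture, 68.5 and 66.6 CPM at low flow and 69.6 and 66.1 CPM at high flow (adjusted p = 0.482 and 0.456). SDHD had 77.2 and 62.8 CPM in static culture, 69.4 and 80.0 CPM at low flow and 60.7 and 74.2 CPM at high flow, and its groups overlapped.

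The ratio of SDHC counts to SDHB counts within a library does not depend on library size or scaling. It was 0.738 and 0.719 in static culture, 1.18 and 1.48 at low flow and 1.07 and 1.27 at high flow. The lowest flow library was above the highest static library, and the flow libraries differed among themselves by more than the static pair did. The ratio of SDHA to SDHB was 0.959 and 1.16 in static culture, 1.31 and 1.39 at low flow and 1.27 and 1.26 at high flow. The ratio of SDHC to SDHA was 0.769 and 0.620 in static culture, 0.895 and 1.06 at low flow and 0.845 and 1.00 at high flow, so each of the 3 ratios was higher in all 4 flow libraries. SDHC and SDHB were picked out by their opposite low flow calls in these same libraries. A higher ratio of SDHC to SDHB in the flow libraries therefore follows from their levels. That ratio is also the product of SDHC to SDHA and SDHA to SDHB, so the 3 ratios are not separate results. How often ratios of other genes separate in this way was not tested. All 3 are ratios of transcripts, and the assembled enzyme was not measured.

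**Figure D3:**
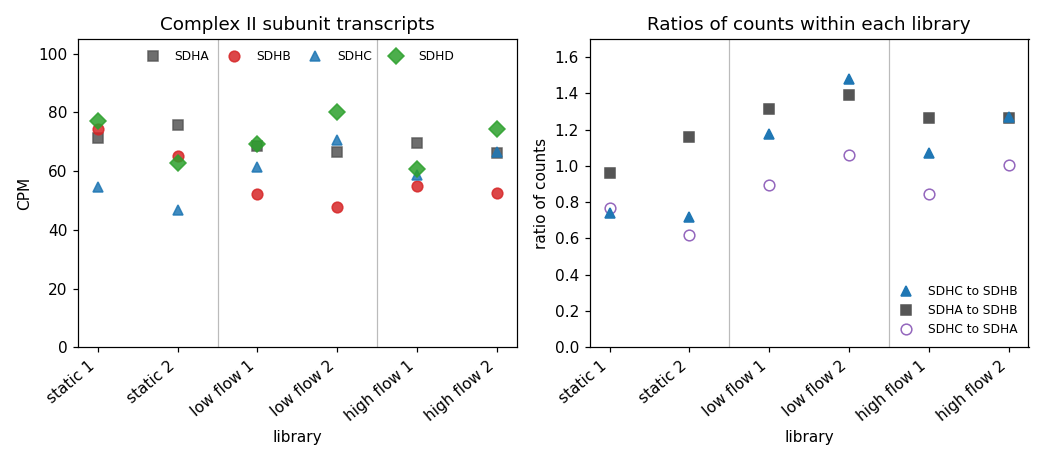
The left panel plots CPM of the 4 complex II subunit genes in each library. The right panel plots ratios of the counts of these same genes within each library, which are not separate results. All 4 flow libraries have a lower SDHB and a higher SDHC level than either static library, and the ratio of SDHC to SDHB is 1.07 to 1.48 in them, against 0.738 and 0.719 in static culture.

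Complex III passes electrons from ubiquinol to cytochrome c. Its redox subunits CYC1 (cytochrome c1) and UQCRFS1 (the Rieske iron-sulfur protein) and the core proteins UQCRC1 and UQCRC2 gave no call. CYC1 had 103 and 81.6 CPM in static culture, 93.8 and 86.1 CPM at low flow and 99.3 and 87.5 CPM at high flow, with all groups overlapping. UQCRFS1 had 44.2 and 39.4 CPM in static culture, 44.6 and 46.5 CPM at low flow and 42.0 and 44.8 CPM at high flow (adjusted p = 0.491 at low flow). UQCRC1 had 127 and 106 CPM in static culture, 118 and 120.4 CPM at low flow and 133 and 129.8 CPM at high flow (adjusted p = 0.255 at high flow). None of the 3 separated from static culture beyond its spread at both flow rates.

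The 5 small accessory subunits of complex III gave 2 lower calls at each flow rate, with medians of -0.23 at low flow and -0.27 at high flow. That is 40%, against 3.49% of all genes tested at low flow and 6.43% at high flow. A share of 5 genes is too coarse to be read as a trait of this class. UQCRB (chr8:96225920-96235634, minus strand), which lies close to the ubiquinone-binding region, had 113 and 122 CPM in static culture, 89.4 and 74.1 CPM at low flow and 90.6 and 78.1 CPM at high flow. The 4 flow libraries lay below both static libraries. UQCRB had the smallest adjusted p of all subunit genes in both comparisons, with a log2 fold change of -0.53 ± 0.11 at low flow (adjusted p = 0.0109) and -0.48 ± 0.11 at high flow (adjusted p = 0.00869).

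UQCR10 (chr22:29767369-29770413, plus strand), a single-span membrane subunit, had 26.4 and 23.5 CPM in static culture, 18.9 and 16.8 CPM at low flow and 20.0 and 18.5 CPM at high flow. Again no flow library reached the lower static library. Its log2 fold change was -0.48 ± 0.12 at low flow (adjusted p = 0.0226) and -0.37 ± 0.12 at high flow (adjusted p = 0.0442). The high flow call was lost with no filter, with DESeq2, with the replicate block and with length and GC offsets with or without that block, and it held in 2 of 7 alternatives. UQCRH, the acidic hinge protein that helps cytochrome c dock, had 229 and 204 CPM in static culture, 186 and 183 CPM at low flow and 184 and 176 CPM at high flow. The flow libraries were all below the static libraries, but the adjusted p was 0.150 at low flow and 0.0704 at high flow. DESeq2 called UQCRH lower at high flow. UQCRQ stayed near 0 (log2 fold change -0.01 at low flow and 0.01 at high flow).

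**Figure D4:**
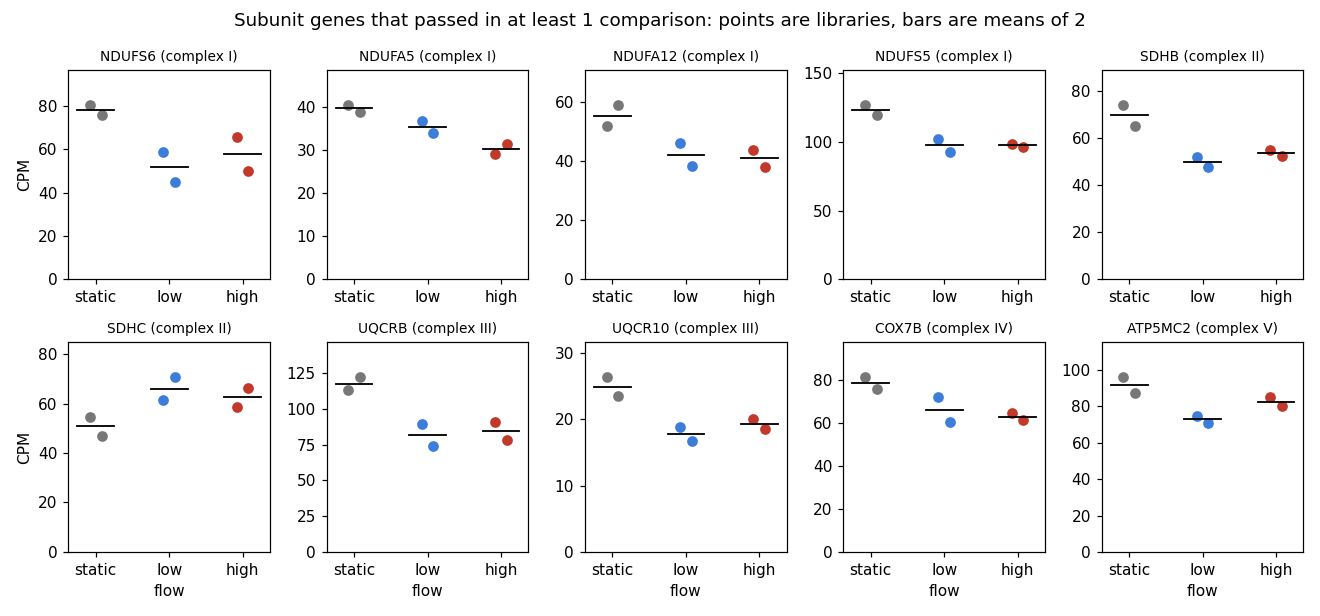
Each panel plots CPM of a subunit gene that passed in at least 1 comparison, with points for libraries, bars for the means of 2 libraries, and a vertical axis that starts at 0. In the 9 genes other than SDHC no flow library reaches the lower static library, and in SDHC no flow library goes down to the higher static library.

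Complex IV, cytochrome c oxidase, passes the electrons to oxygen, and its catalytic subunits are encoded in the mitochondrial genome. All 11 nuclear-encoded subunits here are accessory and set its stability and regulation. Low flow gave no call, although 4 genes had an unadjusted p under 0.05, 8 of 11 lay below 0 and the median was -0.11 (DESeq2 also made no call among them). COX7B (chrX:77899438-77907373, plus strand), a small membrane subunit needed for assembly, had 81.3 and 75.8 CPM in static culture, 72.2 and 60.3 CPM at low flow and 64.7 and 61.2 CPM at high flow. Its flow libraries were all below the static libraries, and it passed at high flow at the edge of the threshold (log2 fold change -0.32 ± 0.10, adjusted p = 0.0499), with -0.25 ± 0.10 at low flow (adjusted p = 0.162).

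COX4I1, the general isoform of a subunit that binds adenine nucleotides, had 273 and 254 CPM in static culture, 231 and 214 CPM at low flow and 231 and 211 CPM at high flow (adjusted p = 0.136 and 0.0934). COX5A, a matrix-side subunit, had 59.3 and 52.9 CPM in static culture, 49.4 and 43.1 CPM at low flow and 48.3 and 50.02 CPM at high flow (adjusted p = 0.118 and 0.243). In both genes the flow libraries were below the static libraries, and neither passed. With length and GC offsets and no block, COX4I1 passed at high flow. The extremes of complex IV at low flow were COX6A1 (-0.29 ± 0.12, adjusted p = 0.160) and NDUFA4 (0.10 ± 0.11, adjusted p = 0.620).

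Complex V has a catalytic F1 head, a membrane ring of c subunits that turns as protons pass, and a peripheral stalk that holds both. ATP5F1A and ATP5F1B, the alpha and beta subunits of the head, had no call. ATP5F1A had 210.1 and 189 CPM in static culture, 216 and 239.7 CPM at low flow and 205 and 227 CPM at high flow, with a log2 fold change at low flow of 0.19 ± 0.10 (adjusted p = 0.267). ATP5F1B had 379.7 and 308 CPM in static culture, 362 and 374 CPM at low flow and 351 and 370.2 CPM at high flow, with overlapping groups. ATP5F1D, the delta subunit of the central stalk, had the highest log2 fold change of complex V at high flow, 0.15 ± 0.12, and did not pass (adjusted p = 0.433). With length and GC offsets its value was -0.078. High flow called 0 genes of complex V by edgeR and by DESeq2, with 3 lower at an unadjusted p under 0.05.

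The c ring is encoded by 3 genes, ATP5MC1, ATP5MC2 and ATP5MC3, which make the same mature protein. ATP5MC2 (chr12:53632726-53677408, minus strand) was the only complex V gene called. It had 96.1 and 87.2 CPM in static culture, 74.9 and 70.8 CPM at low flow and 85.2 and 79.9 CPM at high flow. It fell at low flow (log2 fold change -0.33 ± 0.10, adjusted p = 0.0485) and had -0.15 ± 0.10 at high flow (adjusted p = 0.318). At high flow it passed in 1 of 7 alternatives, with length and GC offsets and no block. The low flow call was lost with no filter, when only the low flow and static libraries were fitted, with the replicate block and without any single library other than low flow library 1. ATP5MC1 had 44.7 and 34.8 CPM in static culture, 37.8 and 29.3 CPM at low flow and 33.0 and 33.0 CPM at high flow, without a call. ATP5MC3 had 54.5 and 44.5 CPM in static culture, 46.0 and 45.6 CPM at low flow and 48.8 and 44.6 CPM at high flow, with overlapping groups. ATP5MC2 supplied 49.2% and 52.4% of the c ring counts in static culture, 47.2% and 48.6% at low flow and 51.0% and 50.8% at high flow, so its share overlapped between high flow and static culture and was below both static values at low flow.

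Promoter sequence was read for the subunit genes that RefSeq's table for GRCh38.p14 holds, 62 of 76. The factors NRF1, the ETS factor GABP, YY1, SP1 and CREB are known regulators of nuclear-encoded respiratory genes. For each gene only the first entry of that table was read, and its start need not be the one used in these cells. Windows ran from 250 bases before the start to 50 after it and were searched on both strands, and matches of different motifs may overlap. The NRF1 consensus motif was in 24.2% of the subunit promoters, against 6.28% of all 27305 promoters. The ETS motif CCGGAAGT was in 14.5% against 4.44%, the YY1 motif AAGATGGCG in 12.9% against 1.85%, and the cyclic AMP response element TGACGTCA in 8.06% against 1.98%. The GC box GGGCGG was in 59.7% against 44.6%, CCAAT in 30.6% against 35.7% and the ESRRA motif TCAAGGTCA in 1.61% against 0.359%. Of the called genes, 7 had a promoter in the table and 3 of those 7 held a match of the NRF1, ETS, YY1 or cyclic AMP response element motif. By motif, NRF1 was in 2 of the 7, YY1 in 1, the cyclic AMP response element in 1 and ETS in 0. NDUFA5 and ATP5MC2 were among the 7 without such a match. The start read for NDUFA5 lay outside the gene's position given above, and that for ATP5MC2 lay inside its position. Other starts of these genes were not searched. Beside the shares over all 62 subunit promoters, 7 promoters are too few to set the called genes apart. A link between a motif and the change under flow was not tested.

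These 3 are shown because their transcripts were lower at both flow rates and their promoters hold such a match. Each runs 5′ to 3′ on the gene's strand from 150 bases before the start to 30 after it. Capitals mark matches of these 4 motifs only, and GC box, CCAAT and ESRRA matches are left in lower case. In SDHB (chr1:17054003-17054182, minus strand) the capitals mark the cyclic AMP response element from -4 to 4 and the YY1 motif from 11 to 19, counted with 1 as the first transcribed base. In NDUFA12 (chr12:95003668-95003847, minus strand) they mark the NRF1 motif from -116 to -107. In UQCR10 (chr22:29767219-29767398, plus strand) they mark the NRF1 motif from -8 to 2.
SDHB: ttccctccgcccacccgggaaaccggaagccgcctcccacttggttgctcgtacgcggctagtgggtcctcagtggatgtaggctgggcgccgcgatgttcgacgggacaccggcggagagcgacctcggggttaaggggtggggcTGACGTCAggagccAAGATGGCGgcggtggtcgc
NDUFA12: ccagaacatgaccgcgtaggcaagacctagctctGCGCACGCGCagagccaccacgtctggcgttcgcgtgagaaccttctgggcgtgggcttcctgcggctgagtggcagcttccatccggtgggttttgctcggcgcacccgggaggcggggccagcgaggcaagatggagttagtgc
UQCR10: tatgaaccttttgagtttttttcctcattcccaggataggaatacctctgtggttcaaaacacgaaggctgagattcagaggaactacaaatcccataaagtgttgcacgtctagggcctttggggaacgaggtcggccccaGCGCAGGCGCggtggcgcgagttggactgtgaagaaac
A match is a stretch of letters and was not tested for binding.

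Assembly factors build the complexes without remaining in them. A list of 58 genes, among them also the ATP synthase inhibitor ATP5IF1, was read from the same fit. At low flow 2 were lower and 0 higher (3.45% lower, against 3.49% of all genes tested, with a median of -0.04), with 3 higher at an unadjusted p under 0.05 and 0 higher by DESeq2. At high flow 7 were lower and 0 higher (12.1% lower, against 6.43% of all genes tested and 8.71% of those at the level of the subunit genes, with a median of -0.08), with 1 higher at an unadjusted p under 0.05 and 0 higher by DESeq2. For lower calls, DESeq2 made 3 at low flow and 6 at high flow. NDUFAF2, the paralogue of NDUFA12 that is exchanged for it late in complex I assembly, had 44.8 and 43.9 CPM in static culture, 27.0 and 19.5 CPM at low flow and 23.7 and 21.6 CPM at high flow. It fell further than any subunit gene, with log2 fold changes of -0.93 ± 0.13 at low flow (adjusted p = 0.00128) and -0.97 ± 0.13 at high flow (adjusted p = 0.000399). The high flow call held without each library in turn, and the low flow call was lost only without static library 2 (adjusted p = 0.0523).

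COX17, the copper chaperone of complex IV, had 25.6 and 22.8 CPM in static culture, 16.4 and 14.2 CPM at low flow and 15.4 and 15.9 CPM at high flow. It fell at low flow (-0.66 ± 0.12, adjusted p = 0.00599) and at high flow (-0.62 ± 0.12, adjusted p = 0.00375), and the high flow call was lost only without high flow library 1 (adjusted p = 0.0810). HIGD1A (-0.42), TMEM126B (-0.38), SDHAF3 (-0.51), NDUFAF7 (-0.36) and LYRM7 (-0.32) fell at high flow and did not pass at low flow, where their log2 fold changes were -0.11, -0.03, -0.43, -0.26 and 0.004 in the same order. None of the 5 passed between high flow and low flow (smallest adjusted p = 0.272, for LYRM7). Of the 7 alternatives that kept all libraries of the groups compared, HIGD1A passed at high flow in 5. TMEM126B, SDHAF3, NDUFAF7 and LYRM7 each passed there in 3. Both low flow libraries of SDHAF3 (9.88 and 8.65 CPM, against 10.6 and 14.2 CPM in static culture) and of NDUFAF7 (25.8 and 23.9 CPM, against 27.5 and 31.9 CPM in static culture) were below both static libraries. Each of these 5 lost its call without static library 2 and without high flow library 1, with largest adjusted p over all settings of 0.198 (HIGD1A) to 0.431 (SDHAF3). HIGD1A shares exon sequence with 2 genes on the same strand, so reads of the 3 may not be told apart, and NDUFAF7 overlaps exons of the more abundant CEBPZ and PRKD3 on the opposite strand.

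Of 14 regulators of mitochondrial biogenesis, edgeR called 2 lower at each flow rate, PPARGC1B and GABPB1, and 0 higher (also 0 higher at an unadjusted p under 0.05 and by DESeq2). That is 14.3% lower, against 3.49% of all genes tested at low flow and 6.43% at high flow, while the medians were 0.01 at low flow and -0.02 at high flow. DESeq2 called 2 regulators lower at low flow and 1 at high flow. Of the 7 alternatives that kept all libraries of the groups compared, PPARGC1B passed in 7 at low flow and 4 at high flow. GABPB1 passed in 4 at low flow and 6 at high flow. PPARGC1B, a coactivator of respiratory gene transcription, had 7.28 and 7.56 CPM in static culture, 4.76 and 4.36 CPM at low flow and 4.89 and 5.20 CPM at high flow. All 4 flow libraries were below the static libraries, and it fell at low flow (-0.70 ± 0.17, adjusted p = 0.0197) and at high flow (-0.56 ± 0.17, adjusted p = 0.0334). Both calls were lost without either static library, the low flow call without low flow library 2 (largest adjusted p over all settings, 0.146), and the high flow call without either high flow library (largest adjusted p over all settings, 0.231). GABPB1, the beta subunit of the ETS factor GABP, fell at low flow (-0.39 ± 0.11, adjusted p = 0.0458) and at high flow (-0.43 ± 0.11, adjusted p = 0.0180). Its low flow call was lost without every library other than low flow library 1 (largest adjusted p over all settings, 0.384), and its high flow call without static library 2 or either high flow library (largest, 0.156). Its exons overlap those of the abundant antisense gene GABPB1-AS1, and the sources used here give no strand setting for the counting. PPARGC1A, PPRC1, NRF1, GABPA, ESRRA and TFAM gave no call, with adjusted p from 0.199 (PPRC1) upward at low flow and from 0.112 (TFAM) to 0.875 (PPARGC1A) at high flow.

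The 13 mitochondrially encoded subunits gave no call by edgeR or DESeq2 in any comparison, and 0 had an unadjusted p under 0.05. Their medians were -0.18 at low flow and -0.20 at high flow. Their replicates differed widely, as in MT-ND1, a core subunit of complex I, with 3814 and 6332 CPM in static culture, 5964 and 3746 CPM at low flow and 5604 and 4685 CPM at high flow. For MT-ND1 static library 1 was the lower of the static pair, while the summed level of the 76 nuclear-encoded subunits was 6098 CPM in static library 1 and 5426 CPM in static library 2.

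**Figure D5:**
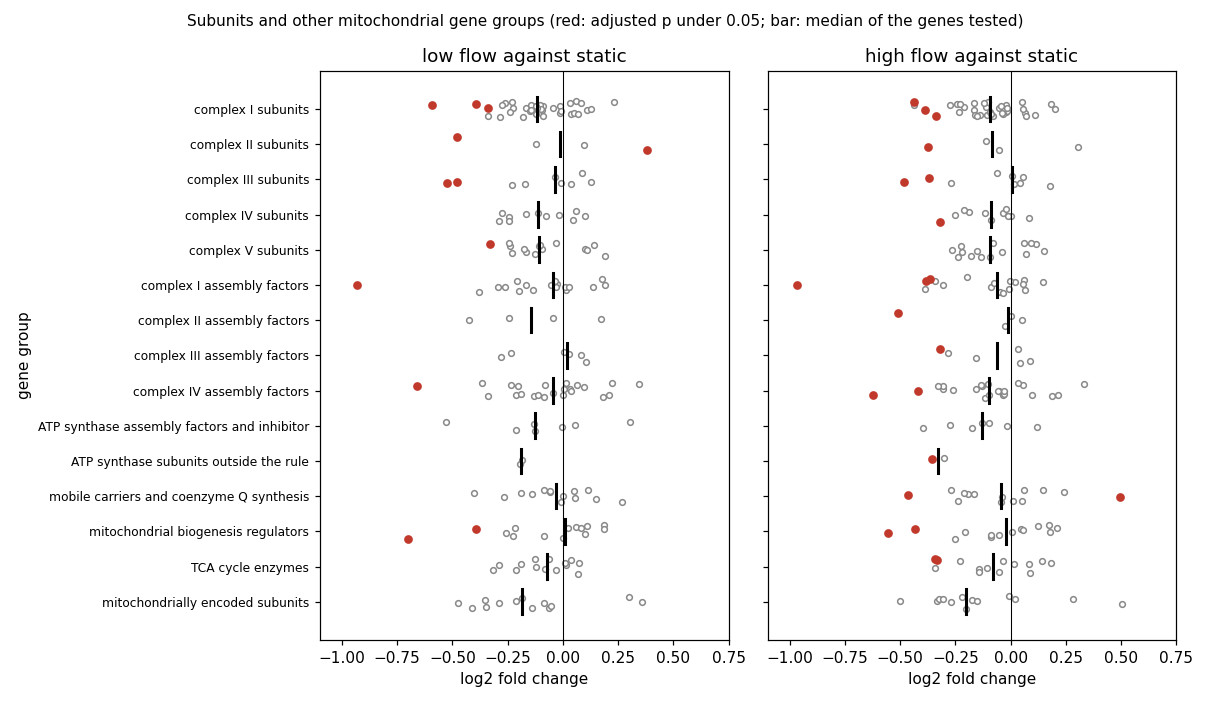
Points are log2 fold changes of the genes of each group against static culture at low flow (left) and high flow (right), bars are group medians, and red points passed an adjusted p of 0.05. The red points lie left of 0 except SDHC at low flow and COQ8B at high flow, and NDUFAF2 is the point farthest to the left in both panels.

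Several subunit genes share exon sequence with other genes on the same strand, which include readthrough, unnamed and named genes, pseudogenes and small RNAs. In GENCODE 29, 23 of the 76 had such a partner, and for 14 the partner held over 50% as many counts as the gene itself. None of the 10 genes called in any comparison was among those 14.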

How the data were processed

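Counts per gene of 6 polyA libraries, made with a KAPA stranded kit per the labels' protocols, were read from the deposited table. Per the submitters' processing notes the authors used STAR, featureCounts and hg38. Versions, annotation and strand setting are not given in the sources used here. Raw counts were fitted with edgeR 4.0.16 in R 4.3.3 (TMM, filterByExpr with a minimum count of 10, robust quasi-likelihood test, 1 coefficient per flow rate over all 6 libraries, 3 residual degrees of freedom). The Benjamini-Hochberg adjustment ran over 20676 genes, with a threshold of 0.05. CPM values use TMM-scaled library sizes (factors 0.973 to 1.02), and all tests are two-sided.

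Genes named with values were those past the threshold, the highest and lowest of each complex and 14 fixed subunits. The subunit genes, gene lists and tests were chosen with earlier results of these data known. Alternatives were RLE scaling, no filter, DESeq2 1.42.0, fits of only 2 groups, a replicate block, offsets for transcript length and GC content (GENCODE 29), and leaving out each library. The script was tested on simulated data. Replicates of a group differed beyond sampling noise. Replicate numbers did not pair the libraries. Positions are those of GENCODE 29 on GRCh38.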

Additional observations from a re-analysis of the deposited data

How the results depend on the processing

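The low flow comparison called 8 subunit genes, and 7 to 8 under RLE scaling, no filter, DESeq2 and length and GC offsets with or without a replicate block. It called 3 when only the low flow and static libraries were fitted and 4 with the replicate block. The high flow comparison called 7, 3 with length and GC offsets plus the replicate block, and 6 to 9 in the other alternatives. Similar counts held different genes. At low flow the offsets added NDUFB10, or NDUFB7 with the block, and dropped SDHC. At high flow NDUFS6 was added in 5 alternatives. SDHC was added there with no filter and in the fit of only 2 groups, UQCRH with DESeq2, and COX4I1 and ATP5MC2 with the offsets alone. Leaving out each library in turn gave 0 to 14 calls at low flow and 0 to 9 at high flow, with medians of -0.19 to 0.0067 and -0.17 to 0.0048. The comparison of high flow with low flow called 0 in each setting. The numbers of the replicates did not pair them (correlations of deviations from -0.14 to 0.14), and with the replicate block NDUFS6, SDHB, UQCRB and UQCR10 passed at low flow and 7 genes at high flow. A crossed pairing, chosen after seeing the data, called 8 genes at low flow and 9 at high flow. The cause of these changes was not tested, beyond the fewer libraries of some fits.

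None of 33 called gene results turned in sign in any setting, and 45 of 1170 pairs of a gene result and a setting did, all in genes without a call. At low flow these were GABPA (-0.0022 with RLE, -0.060 with length and GC offsets and -0.059 with the block added), NDUFV1 (0.018 without the filter), NDUFS1 (-0.034 and -0.035 with the offsets, without and with the block) and UQCRC1 (-0.0077 and -0.0076). At high flow they were NDUFS1 (0.013 without the filter) and, with the offsets without and with the block, NDUFV1 (-0.10 and -0.10), CYC1 (-0.14 and -0.14), ATP5F1D (-0.078 and -0.078), ESRRA (-0.013 and -0.014) and PPARGC1A (0.0035 without the block). Leaving out a library gave ranges across 0 at low flow for NDUFV1 (-0.044 to 0.028), NDUFS1 (-0.0043 to 0.12), CYC1 (-0.19 to 0.14), UQCRC1 (-0.081 to 0.17), NDUFA4 (-0.021 to 0.24), ATP5F1B (-0.040 to 0.26), ATP5MC3 (-0.25 to 0.043), PPARGC1A (-0.074 to 0.19), GABPA (-0.11 to 0.13) and TFAM (-0.17 to 0.0099). At high flow it did so for NDUFS1 (-0.066 to 0.028), CYC1 (-0.14 to 0.19), UQCRFS1 (-0.019 to 0.14), NDUFA4 (-0.040 to 0.22), ATP5F1B (-0.070 to 0.23), ATP5F1D (-0.00071 to 0.31), ATP5MC3 (-0.22 to 0.071), PPARGC1A (-0.24 to 0.12), PPRC1 (-0.011 to 0.11) and NRF1 (-0.22 to 0.068). For high flow against low flow it did so for ATP5F1A (-0.16 to 0.00024).

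The static libraries hold fewer counts than the others, but no subunit gene had fewer than 343 counts in a library. Over all genes, replicates of a group differed by a chi-square per degree of freedom of 13.3 to 33.2, above counting noise alone, and each group had 2 libraries.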

Other observations

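Of 14 TCA cycle enzymes 0 passed at low flow (edgeR and DESeq2, 2 at an unadjusted p under 0.05) and 2 were lower at high flow (14.3%, against 6.43% of all genes tested and 8.71% of those at or above the lowest subunit gene's level). FH, fumarase, had 62.5 and 67.8 CPM at high flow, against 84.0 and 80.3 CPM in static culture (log2 fold change -0.33, adjusted p = 0.0323). SUCLG1, a subunit of succinyl-CoA ligase, had 41.6 and 40.9 CPM at high flow, against 53.4 and 51.4 CPM in static culture (log2 fold change -0.34, adjusted p = 0.0339). Each call was lost without any single static or high flow library (largest adjusted p over all settings, 0.288 for FH and 0.194 for SUCLG1). SDHB, which also belongs to this cycle, was counted with complex II.

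Of 14 genes for mobile carriers and coenzyme Q synthesis, high flow called 1 lower and 1 higher (7.14% each, against 6.43% of all genes tested lower and 7.49% higher). PDSS1, which makes the isoprenoid tail of coenzyme Q, had 14.5 and 15.7 CPM at high flow, against 19.7 and 21.9 CPM in static culture (log2 fold change -0.46, adjusted p = 0.0196). COQ8B, an atypical kinase of the same pathway, had 12.9 and 11.6 CPM at high flow, against 9.37 and 8.09 CPM in static culture (log2 fold change 0.49, adjusted p = 0.0322). Both were lost without static library 2 or either high flow library (largest adjusted p over all settings, 0.210 for PDSS1 and 0.258 for COQ8B), and the exons of both overlap an abundant gene on the opposite strand. ATP5MPL, an ATP synthase subunit whose symbol lay outside the naming rule, had 39.97 and 39.4 CPM at high flow, against 53.7 and 47.9 CPM in static culture (log2 fold change -0.35, adjusted p = 0.0291), and was lost without any single static or high flow library (largest adjusted p over all settings, 0.182).

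Of 9 isoforms or copies known mainly from other tissues or states, 6 did not reach the count filter. COX4I2, COX6A2, COX7A1, COX7B2, COX8C and NDUFA4L2 were in the table below that filter, while COX6B2, COX7A2L and UQCRHL passed it and had no call by edgeR.

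Across the 76 subunit genes, the rank correlation of the log2 fold change with transcript GC content was -0.13 for low flow against static culture, 0.24 for high flow against static culture and 0.63 for high flow against low flow. Over the 19604 genes with an annotation it was 0.07, 0.30 and 0.43. Genes share libraries and are not independent, so these are descriptions. The comparison of high flow with low flow had the largest value in both sets. The lanes differed in that comparison and equally in high flow against static culture. The part of lane or GC content in these values was not tested.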
